A study of Homo sapiens with 4 samples.

Results

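The 2 clones of A2780s cells labelled as GALNT3 knockdown, sh-G1 and sh-G2, were compared with each other through the ctrl clone against which both had been hybridised. Per probe, the log2 ratio of sh-G2 over ctrl was subtracted from that of sh-G1 over ctrl within each dye orientation, and both differences were averaged, so that a positive value means a higher level in sh-G1. All 4 arrays of the series entered, and 39152 of the 41000 probes, which represent 16882 named genes, could be compared. A2780s is a human ovarian adenocarcinoma line. Both knockdown clones carried the same shRNA against GALNT3 in a plasmid vector and had been isolated under puromycin as stable clones, and ctrl was a mock-transfected clone that carried the empty vector. Each group is therefore 1 clone. In replicate 1 of each knockdown clone its RNA carried Cy5, in replicate 2 Cy3, and ctrl was in the other channel. The sources used here do not say whether both arrays of a clone came from separate cultures or extracts, so the p-values below measure only the spread between hybridisations, which may be technical.

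GALNT3 encodes a glycosyltransferase that starts mucin-type O-glycosylation by adding N-acetylgalactosamine to serine and threonine in the Golgi. A stable clone descends from a single cell in which the vector has integrated, and independent clones carry independent integrations. The question of this comparison was which genes and functions differ between 2 clones made with the same hairpin.

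Between 88.1% and 97.0% of the spots of an array were well above background in the knockdown channel, lowest on sh-G2 replicate 2, and at least 95.9% in the ctrl channel. No spot was saturated. The array carries 1 probe for GALNT3, which was well above background on 1 of the 2 arrays of each knockdown clone and on all 4 arrays in ctrl. Its log2 ratio to ctrl was -0.09 and 0.08 on the sh-G1 arrays and 0.12 and -0.14 on those of sh-G2. Neither clone was thus below ctrl on both of its arrays, and no knockdown was seen with this dim probe. The clones overlapped, and the sign of their difference of 0.00 changed with the processing. The paper reports reduced GALNT3 in both clones from PCR and immunoblots, and it picked them on that basis. A probe this close to background cannot decide whether GALNT3 was lowered, so the knockdown was not tested here. All 13 measured markers of ovarian and epithelial cancer were well above background in every channel, and they differed between the clones by -0.51 (KRT18) to 0.16 (FOLR1), with none past the threshold described next. The 12 measured markers of blood and vessel cells differed by -0.01 to 0.09.

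A probe was called different between the clones when its difference was at least 1.5-fold in the same direction in both dye orientations. This rule holds no test. It called 158 probes as higher in sh-G1, which is 0.404% of all probes, and 252 as higher in sh-G2, which is 0.644%. At 2-fold the counts were 70 (0.179%) and 49 (0.125%), so that the excess of sh-G2 was seen at the lower threshold only. In the brightest probe of each gene, 111 genes (0.658%) were higher in sh-G1 and 77 (0.456%) in sh-G2. At 2-fold 49 genes (0.290%) and 19 genes (0.113%) were called, 0.403% in all.

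The ctrl channel was taken as a background for the rule, since the same clone was labelled on every array. It is a single channel and not a ratio, so its spread can differ from that of the rule. The sources do not say whether ctrl came from separate cultures, so its channel may lack variation between cultures. Read alone in the same way, the ctrl signals differed between the arrays of sh-G1 and those of sh-G2 for 110 probes at 1.5-fold (0.281%) and for 4 at 2-fold (0.0102%). At 2-fold these were 2 (0.00511%) in each direction. The knockdown signals alone differed for 642 probes at 1.5-fold (1.64%), 251 higher in sh-G1 (0.641%) and 391 higher in sh-G2 (0.999%), and for 133 at 2-fold (0.340%). Among the 410 called probes, 1 was also called in the ctrl channel, and 362 were called in the same direction in the knockdown channel alone.

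**Figure D1:**
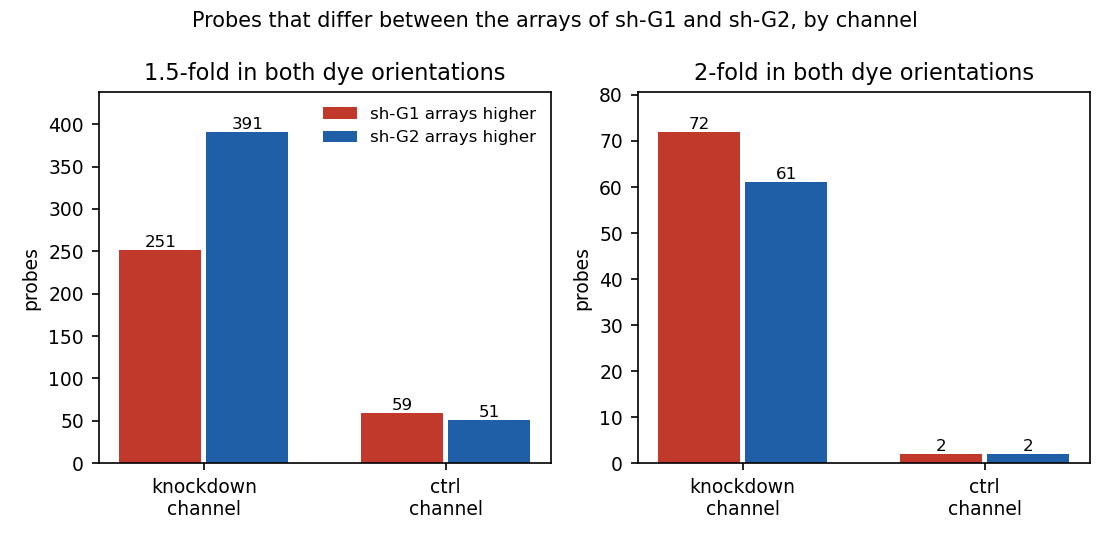
Number of probes (y axes) whose signal differed between the arrays of sh-G1 and those of sh-G2 in the knockdown channel and in the ctrl channel, at 1.5-fold (left) and 2-fold (right) in both dye orientations, with the higher clone's arrays in red (sh-G1) and blue (sh-G2). At 2-fold the knockdown channel held 72 and 61 such probes and the ctrl channel 2 and 2.

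A single dye orientation was far less selective. With the knockdown clones in Cy5, 2597 probes passed 1.5-fold, and in Cy3 814 passed. Of the probes past 1.5-fold in both orientations, 21 went in opposite directions, and no probe did so at 2-fold. Across all probes, which are not independent replicates, the differences of both orientations correlated with r = 0.279. For single channels r was 0.262 in the knockdown channel and 0.189 in the ctrl channel. In the plot of one orientation against the other, the rule itself places the called probes toward the diagonal. Probes high or low in a single orientation lie along the axes for the same reason.

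**Figure D2:**
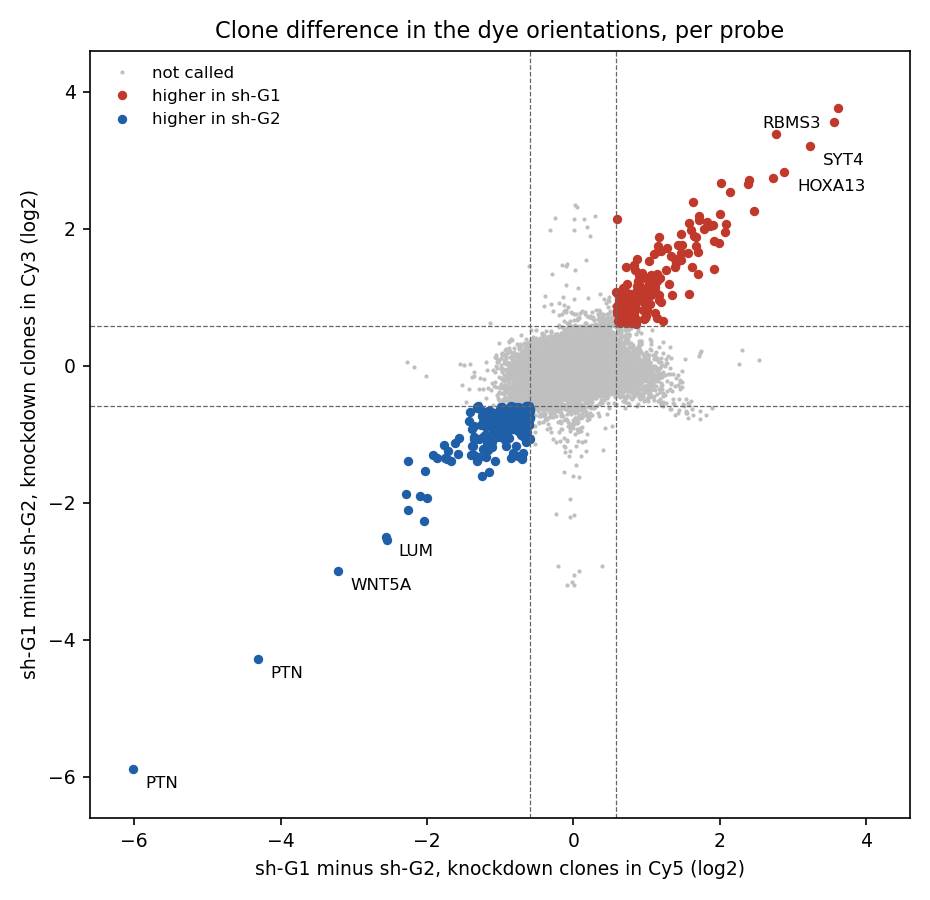
Difference sh-G1 minus sh-G2 (log2) of each of the 39152 probes with the knockdown clones in Cy5 (x axis) and in Cy3 (y axis). Red points are the 158 probes called higher in sh-G1, blue points the 252 called higher in sh-G2, grey points all others, and dashed lines mark 1.5-fold. PTN lies furthest from 0.

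limma's test with terms for both clones and for dye, adjusted by Benjamini-Hochberg over all probes, found 33 probes higher in sh-G1 (0.0843%) and 15 higher in sh-G2 (0.0383%) at a threshold of 0.05. All 48 were also called by fold. By the brightest probe 21 genes (0.124%) and 10 genes (0.0592%) passed. Without the dye term, which is the pairing of the arrays by replicate number, 2 and 3 probes passed.

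All of these 31 genes also passed 2-fold in both orientations. Those with the largest differences toward sh-G1 and the 10 higher in sh-G2 are plotted, and BMP2, MSX1 and SULF1, which also passed, are given with their families. FSTL5 and SLITRK6 passed with smaller differences toward sh-G1. Values of each gene are log2 ratios to ctrl, first of the array with the knockdown clone in Cy5 and then of that in Cy3.

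**Figure D3:**
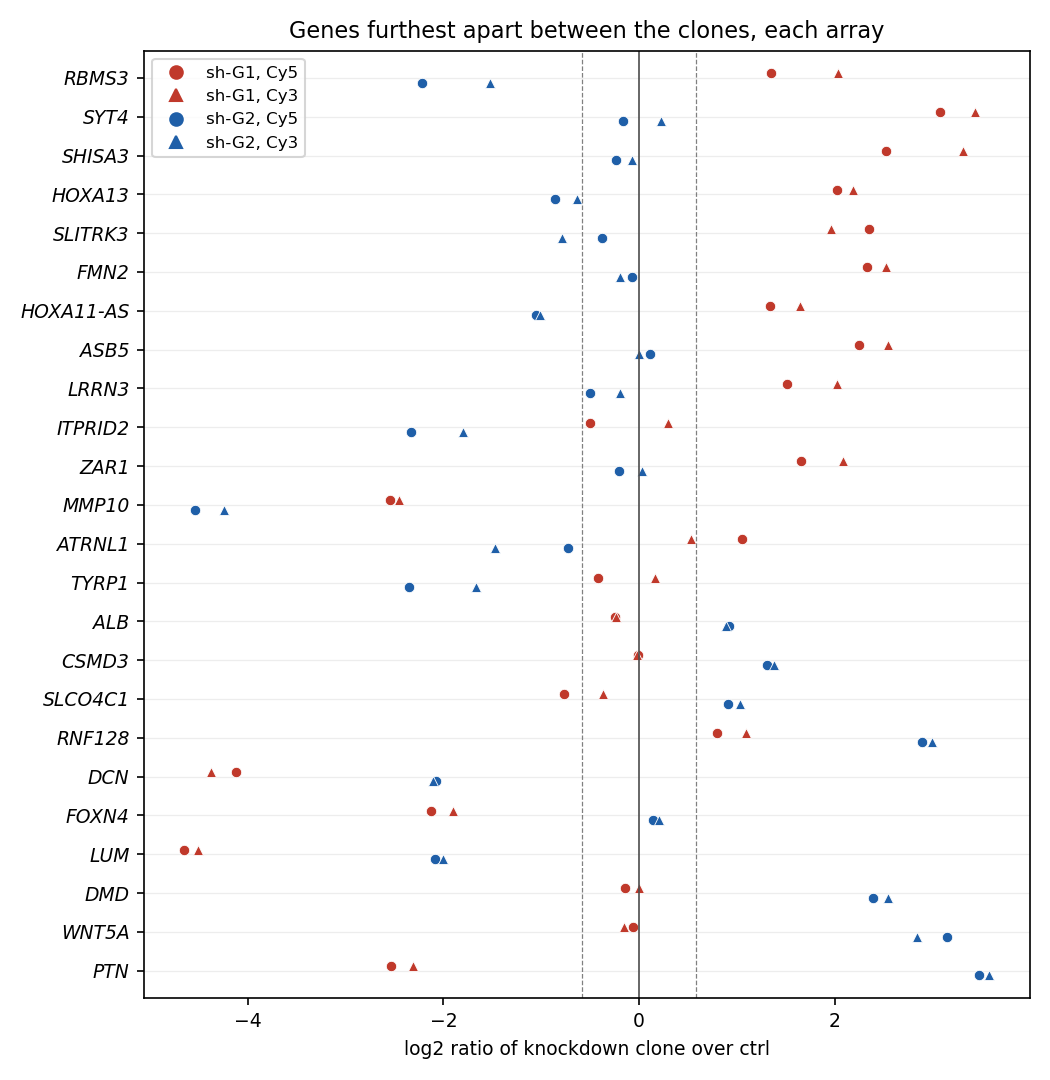
Log2 ratio of the knockdown clone over ctrl (x axis) on each array for genes with the largest differences toward sh-G1 and the 10 higher in sh-G2 (y axis), all past 2-fold in both dye orientations and limma's threshold, ordered by the difference between the clones. Red symbols are sh-G1 and blue sh-G2, circles are arrays with the knockdown clone in Cy5 and triangles those in Cy3, and dashed lines mark 1.5-fold; in every gene shown, both arrays of one clone lie above both arrays of the other.

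The genes with a probe at least 1.5-fold from ctrl in opposite directions in the clones on all arrays were PTN, RBMS3, HOXA13, HOXA11-AS and FZD4. PTN encodes pleiotrophin, a secreted growth factor that binds heparan sulfate and receptor-type phosphatases. The brightest PTN probe read -2.54 and -2.31 on the sh-G1 arrays and 3.48 and 3.58 on those of sh-G2. Both arrays of sh-G1 lay below ctrl and both of sh-G2 above it. The difference was -5.95 (SE 0.11, limma adjusted p = 0.00231), the widest of any probe. The other PTN probe read -1.38 and -1.14 on the sh-G1 arrays and 2.93 and 3.14 on those of sh-G2, a difference of -4.30. RBMS3, an RNA-binding protein, was turned the other way, with 1.34 and 2.03 on the sh-G1 arrays and -2.22 and -1.53 on those of sh-G2 and a difference of 3.56 (SE 0.09, limma adjusted p = 0.00309). Its other probes differed by 0.69 and 0.32 and were not called.

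HOXA13 and HOXA11-AS lie next to each other at one end of the HOXA cluster. HOXA13 is the homeobox factor of the most posterior body parts, and HOXA11-AS is a non-coding transcript that starts beside HOXA11 and runs against it. HOXA13 read 2.02 and 2.19 on the sh-G1 arrays and -0.86 and -0.64 on those of sh-G2. Its difference of 2.86 (SE 0.13, limma adjusted p = 0.0166) was repeated by its other probe with 2.08. HOXA11-AS read 1.34 and 1.64 on the sh-G1 arrays and -1.05 and -1.01 on those of sh-G2 and differed by 2.52 (SE 0.11, limma adjusted p = 0.0167). FZD4, a WNT receptor, read 0.85 and 1.13 on the sh-G1 arrays and -0.65 and -0.63 on those of sh-G2. Its difference of 1.63 (SE 0.14) passed the fold rule but not limma's threshold (adjusted p = 0.064), and its other probe differed by 0.07.

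The sequences of the 250 bases before the RefSeq start of PTN, RBMS3, HOXA13 and HOXA11-AS (build GRCh38.p14) are shown because these genes depart from ctrl in opposite directions in clones that share a hairpin. They are written 5′ to 3′ on the strand of the gene, with CG dinucleotides in capitals.
PTN (chr7:137343734-137343983, minus strand): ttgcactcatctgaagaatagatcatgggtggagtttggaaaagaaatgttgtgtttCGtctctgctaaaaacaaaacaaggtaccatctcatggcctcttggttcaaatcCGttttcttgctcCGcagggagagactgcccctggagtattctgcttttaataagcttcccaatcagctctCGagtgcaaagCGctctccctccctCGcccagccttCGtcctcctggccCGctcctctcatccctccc
RBMS3 (chr3:29280821-29281070, plus strand): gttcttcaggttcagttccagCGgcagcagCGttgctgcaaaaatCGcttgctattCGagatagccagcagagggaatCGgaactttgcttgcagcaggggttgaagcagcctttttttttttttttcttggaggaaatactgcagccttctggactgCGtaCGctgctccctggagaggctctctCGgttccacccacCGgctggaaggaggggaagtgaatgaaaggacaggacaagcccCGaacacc
HOXA13 (chr7:27200092-27200341, minus strand): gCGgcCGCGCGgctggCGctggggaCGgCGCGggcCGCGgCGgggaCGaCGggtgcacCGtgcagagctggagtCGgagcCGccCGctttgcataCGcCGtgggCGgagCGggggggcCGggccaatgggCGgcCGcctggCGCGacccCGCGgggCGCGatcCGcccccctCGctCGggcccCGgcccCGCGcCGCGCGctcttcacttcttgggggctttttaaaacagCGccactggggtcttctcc
HOXA11-AS (chr7:27185158-27185407, plus strand): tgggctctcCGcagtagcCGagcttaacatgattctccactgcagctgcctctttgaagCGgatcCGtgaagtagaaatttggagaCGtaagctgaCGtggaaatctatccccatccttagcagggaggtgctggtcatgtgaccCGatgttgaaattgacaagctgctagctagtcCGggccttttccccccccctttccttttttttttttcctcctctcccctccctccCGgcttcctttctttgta
The window of HOXA13 held 40 CG dinucleotides and those of PTN, RBMS3 and HOXA11-AS held 8, 10 and 9. Over all measured genes with a sequence in the RefSeq table (13401 of 16882, the first start listed), the median was 19. The 92 matched genes called higher in sh-G1 had a median of 18 and the 56 called higher in sh-G2 a median of 15.5, with quartiles from 7.75 to 28 and from 8 to 24.25, against 8 to 27 for all genes. These counts were not tested.

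Genes that departed from ctrl mainly in sh-G2 followed. WNT5A, a ligand of the non-canonical WNT pathway, read -0.06 and -0.15 on the sh-G1 arrays and 3.15 and 2.84 on those of sh-G2. It lay within 1.5-fold of ctrl in sh-G1 and far above it in sh-G2, a difference of -3.10 (SE 0.10, limma adjusted p = 0.00467). The other 15 measured WNT ligands differed by -0.09 (WNT8B) to 0.54 (WNT6), and none was called. DMD encodes dystrophin and is transcribed from several promoters. Its brightest probe read -0.15 and 0.00 on the sh-G1 arrays and 2.39 and 2.54 on those of sh-G2, and a second probe differed by -1.23 in the same direction. The remaining DMD probes differed by 0.31 and -0.18 and were not called, so the difference was carried by some of its probes. RNF128, a ubiquitin ligase known from T cell anergy, was above ctrl in both clones and more so in sh-G2, with 0.79 and 1.09 on the sh-G1 arrays and 2.89 and 2.99 on those of sh-G2. The other RNF128 probe differed by -0.42 and was not called. Further genes above ctrl in sh-G2 alone were CSMD3, SLCO4C1, a transporter of organic anions, and ALB, which encodes albumin. CSMD3 read -0.01 and -0.02 on the sh-G1 arrays and 1.30 and 1.38 on those of sh-G2. Limma's adjusted p was 0.0289 for CSMD3, 0.0363 for SLCO4C1 and 0.0497 for ALB. The other SLCO4C1 probe differed by -0.07 and was not called.

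FOXN4, LUM and DCN were called higher in sh-G2, and in all 3 sh-G1 lay below ctrl. FOXN4, a forkhead factor of the developing retina and spinal cord, read -2.12 and -1.90 on the sh-G1 arrays and 0.14 and 0.20 on those of sh-G2. LUM and DCN encode lumican and decorin, small leucine-rich proteoglycans that bind collagen fibrils, and lie beside each other on chromosome 12. LUM read -4.65 and -4.51 on the sh-G1 arrays and -2.08 and -2.01 on those of sh-G2, and DCN read -4.12 and -4.37 on the sh-G1 arrays and -2.07 and -2.11 on those of sh-G2. Both were lower than ctrl on every array, and all arrays of sh-G1 lay below those of sh-G2. The differences were -2.53 (SE 0.12, limma adjusted p = 0.0181) and -2.15 (SE 0.14, limma adjusted p = 0.0300). LUM and DCN are also fibroblast markers. The 5 other measured markers of fibroblasts differed by -0.11 (FAP) to 0.58 (PDGFRB), and none of the 5 was called. COL1A2 (0.18), PDGFRA (0.10), THY1 (0.36) and PDGFRB had the opposite sign to LUM and DCN, and FAP had the same sign. The mean log2 signal of all 7, LUM and DCN included, was 8.99 in sh-G1, 9.51 in sh-G2 and 10.6 in ctrl. The samples are labelled as clones of A2780s cells, and whether any fibroblasts were present was not tested. In bulk RNA, numbers of cells and RNA per cell cannot be told apart.

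Several of the genes higher in sh-G1 lay near the level of ctrl in sh-G2 and above it in sh-G1. SYT4, a synaptotagmin of neuroendocrine vesicles, read 3.07 and 3.43 on the sh-G1 arrays and -0.17 and 0.23 on those of sh-G2. Its difference was 3.22 (SE 0.09, limma adjusted p = 0.00312). SHISA3, which retains WNT and FGF receptors inside the cell, read 2.53 and 3.31 on the sh-G1 arrays and -0.24 and -0.07 on those of sh-G2. SLITRK3, a synaptic adhesion protein, read 2.35 and 1.96 on the sh-G1 arrays and -0.38 and -0.78 on those of sh-G2 and so lay somewhat below ctrl in sh-G2. FMN2, a formin that nucleates actin, read 2.33 and 2.52 on the sh-G1 arrays and -0.07 and -0.20 on those of sh-G2 in its brightest probe, while its other probe differed by -0.01. It was well above background on 1 of the 2 sh-G2 arrays. ASB5, LRRN3, a neuronal leucine-rich repeat protein, and ZAR1, known from oocytes, followed the same pattern, with differences of 2.34, 2.11 and 1.95. The other LRRN3 probe was called with 0.88, and the other ASB5 probe differed by 0.35 and was not called.

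In other genes higher in sh-G1, sh-G2 lay below ctrl. ITPRID2, a partner of inositol trisphosphate receptors, read -0.50 and 0.29 on the sh-G1 arrays and -2.33 and -1.80 on those of sh-G2, and TYRP1, an enzyme of melanin synthesis, read -0.42 and 0.16 on the sh-G1 arrays and -2.35 and -1.66 on those of sh-G2. In both genes sh-G1 was within 1.5-fold of ctrl on both arrays. The other ITPRID2 probe differed by 0.27 and was not called. MMP10, the secreted protease stromelysin-2, was below ctrl in both clones, with -2.54 and -2.45 on the sh-G1 arrays and -4.54 and -4.25 on those of sh-G2, so that sh-G2 held the lower level. The difference of 1.90 (SE 0.14) passed limma's threshold (adjusted p = 0.0445). ATRNL1 lay above ctrl in sh-G1 and below it in sh-G2, with 1.05 and 0.53 on the sh-G1 arrays and -0.73 and -1.47 on those of sh-G2, and did not reach 1.5-fold from ctrl on every array. Of its other probes, that with a difference of 0.83 was called and that with 0.22 was not.

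Functions were read from 56 gene lists, in which 1827 measured genes stood. The median difference over all 16882 genes was 0.01, and 1.11% of genes were called. The medians of the lists ran from -0.09 to 0.19, and 52 of 56 lay within 0.1 of 0. In 27 lists no member was called, in 12 only members higher in sh-G1, in 6 only members higher in sh-G2 and in 11 members of both directions.

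**Figure D4:**
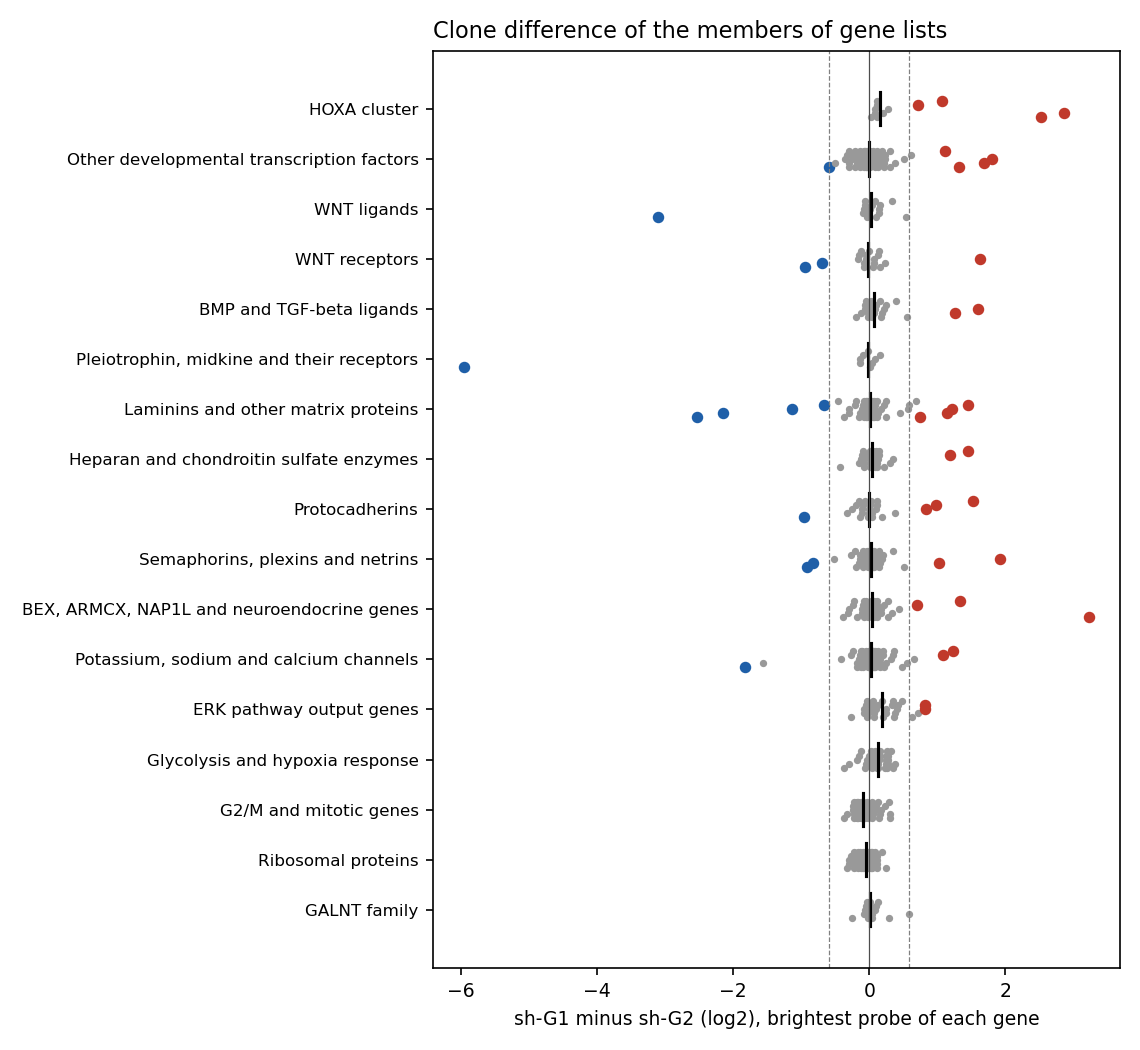
Difference sh-G1 minus sh-G2 (log2, x axis) of the members of 17 gene lists (y axis), 1 point per gene by its brightest probe, with black bars at the list medians. Red points were called higher in sh-G1 and blue points higher in sh-G2, small grey points were not called, and dashed lines mark 1.5-fold; the medians stay between -0.09 and 0.19 while single members reach -5.95 and 3.22.

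In the HOXA cluster, whose genes set position along the body axis, 4 of 12 measured genes were called, all higher in sh-G1, beside 0.658% of all genes in that direction. They were HOXA13 and HOXA11-AS, given above, HOXA9 with 1.06 (limma adjusted p = 0.0971) and HOXA11 with 0.71 (limma adjusted p = 0.15), whose probe was well above background on 1 of the 2 sh-G2 arrays. HOXA9 read 0.19 and 0.22 on the sh-G1 arrays and -0.69 and -1.03 on those of sh-G2. The 8 others differed by 0.03 (HOXA4) to 0.27 (HOXA10). Probes of HOXA11 and HOXA11-AS lie in overlapping transcripts. None of the 29 measured genes of the HOXB, HOXC and HOXD clusters was called, with a range of -0.37 to 0.55. Among 68 other developmental transcription factors, FOXC1 (1.80), MSX1 (1.68), SOX2 (1.32) and TBX1 (1.12) were called higher in sh-G1. MSX1, a homeobox factor of limb and craniofacial mesenchyme, passed limma's threshold (adjusted p = 0.0446). It read -0.96 and -0.94 on the sh-G1 arrays and -2.67 and -2.60 on those of sh-G2 and was below ctrl on all arrays.

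Among signalling ligands, BMP2 and TGFB2 were called higher in sh-G1, 2 of 23 measured BMP and TGF-beta ligands. BMP2 read -1.42 and -0.96 on the sh-G1 arrays and -2.99 and -2.60 on those of sh-G2, below ctrl in both clones, and differed by 1.60 (SE 0.09, limma adjusted p = 0.0193). BMP2 was well above background on 1 of the 2 sh-G2 arrays, and its difference reached 2.99 with the scanner's own ratios. TGFB2 read -1.49 and -1.45 on the sh-G1 arrays and -2.80 and -2.65 on those of sh-G2 and did not pass limma (adjusted p = 0.0804). PDGFC, a ligand of platelet-derived growth factor receptors, was called higher in sh-G2, with 0.65 and 1.52 on the sh-G1 arrays and 2.41 and 2.67 on those of sh-G2. Of 18 measured WNT receptors, FZD4 was called higher in sh-G1 and FZD3 (-0.94) and FZD7 (-0.69) higher in sh-G2. None of 30 BMP and TGF-beta receptors, antagonists and targets was called by the brightest probe. In the pleiotrophin and midkine list PTN alone of 9 genes was called, and the other members differed by at most 0.16 in size. FGFR3, a receptor kinase, was called higher in sh-G1, and no other member of 25 measured FGF ligands and receptors was called.

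Matrix genes were called in both directions, 4 and 4 of 59 measured laminins and other matrix proteins. NID2, LAMA1, POSTN and LAMB1 were called higher in sh-G1, and all 4 lay below ctrl in both clones. LAMA1 read -0.96 and -0.42 on the sh-G1 arrays, so that it was 1.5-fold below ctrl on both arrays in sh-G2 alone. The other LAMA1 probes differed by 0.27, 0.66 and 0.05 and were not called. NID2, which links laminin and collagen in basement membranes, read -1.71 and -0.94 on the sh-G1 arrays and -2.87 and -2.69 on those of sh-G2. LAMB1, a laminin chain, read -2.92 and -2.62 on the sh-G1 arrays and -3.57 and -3.46 on those of sh-G2. LUM, DCN, HAPLN1, which links hyaluronan to proteoglycans, and OGN, a further leucine-rich proteoglycan, were called higher in sh-G2. HAPLN1 read 1.63 and 1.89 on the sh-G1 arrays and 2.86 and 2.93 on those of sh-G2 and thus was above ctrl in both clones. Besides LUM and DCN no matrix gene of this list passed limma. Of 35 measured heparan and chondroitin sulfate enzymes, SULF1 and SULF2, the sulfatases that remove 6-O-sulfate from heparan sulfate at the cell surface, were called higher in sh-G1. SULF1 read 1.03 and 1.45 on the sh-G1 arrays and -0.11 and 0.21 on those of sh-G2 (limma adjusted p = 0.0468) and SULF2 read -0.17 and -0.15 on the sh-G1 arrays and -1.57 and -1.64 on those of sh-G2 (limma adjusted p = 0.068). The former was above ctrl in sh-G1 and the latter below ctrl in sh-G2. MGAT3 (1.06) and CHST2 (0.96) were called higher in sh-G1 among 56 enzymes of glycan extension, and none of 17 measured GALNT genes or 14 mucins was called.

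Adhesion and guidance genes were divided as well. PCDH19, PCDH15 and PCDH18 were called higher in sh-G1 and PCDH10 higher in sh-G2, of 25 measured protocadherins. CDH2, N-cadherin, read -1.16 and -0.86 on the sh-G1 arrays and -2.15 and -1.84 on those of sh-G2 and was the single called member of 35 classical cadherins and desmosomal genes. SEMA6A (1.93) and UNC5B (1.02) were called higher in sh-G1, and SLIT2 (-0.92) and SEMA3B (-0.82) higher in sh-G2. EFNA5 was called higher in sh-G1 and EPHA3, a receptor that can bind it, higher in sh-G2. EFNA5 read 0.74 and 1.01 on the sh-G1 arrays and -0.31 and -0.27 on those of sh-G2, and EPHA3 read 0.26 and 0.37 on the sh-G1 arrays and 1.26 and 1.01 on those of sh-G2. The other EFNA5 probe differed by 0.07 and the other EPHA3 probes by -0.21 and 0.12, and none of these was called. Among 41 neuroendocrine and related genes SYT4 and NAP1L3 were called higher in sh-G1. By the brightest probe, the called subunits of the BK potassium channel, KCNMA1 (1.08) and KCNMB4 (1.23), were higher in sh-G1. The KCNMA1 probes disagreed. Another was called higher in sh-G1 as well, but those with differences of 0.09, -0.02 and -0.01 were not called. SCN9A, a sodium channel, was higher in sh-G2 (-1.82). Further called members were the receptors SUCNR1, ADRA2C and P2RY1, the glucocorticoid receptor NR3C1 (1.12), COL6A2, SNAI2, GBP1, MEST and TRIB3, higher in sh-G1, and S100A4, USP18, KCNQ1OT1, PPP1R9A, GLRB and TXNIP, higher in sh-G2. Except for SYT4 none of these adhesion, neuronal, receptor and other genes passed limma by its brightest probe, with adjusted p from 0.0583 (SEMA6A) to 0.267 (PCDH10).

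The list with the median furthest from 0 was that of ERK pathway output genes, at 0.19, with 0.18 in Cy5 and 0.11 in Cy3. Of its 29 measured members 22 were above 0, against 8858 of 16882 genes. DUSP6, a phosphatase of ERK that is itself induced by ERK, read 1.61 and 2.40 on the sh-G1 arrays and 0.78 and 1.58 on those of sh-G2, above ctrl on all arrays. EGR1 read 0.45 and 0.34 on the sh-G1 arrays and -0.31 and -0.54 on those of sh-G2, which put sh-G1 above and sh-G2 below ctrl. Both were called higher in sh-G1, and limma's adjusted p was 0.174 and 0.193. Glycolysis and hypoxia genes had a median of 0.12 with 0 of 37 called, and G2/M genes one of -0.09 with 0 of 47 called.

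How the called probes lay against ctrl was read with the same threshold of 1.5-fold on both arrays of a clone. Both ratios share the ctrl clone. Of the 158 probes higher in sh-G1, 42 were above ctrl in sh-G1 alone and 45 below ctrl in sh-G2 alone. Both clones were below ctrl for 36 and above for 5, they went opposite ways for 4, and neither departed for 26. Of the 252 probes higher in sh-G2, 40 were above ctrl in sh-G2 alone, 48 below in sh-G1 alone, 10 above in both, 3 below in both and 2 opposite. The largest class among them, 149 probes, departed from ctrl in neither clone.

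**Figure D5:**
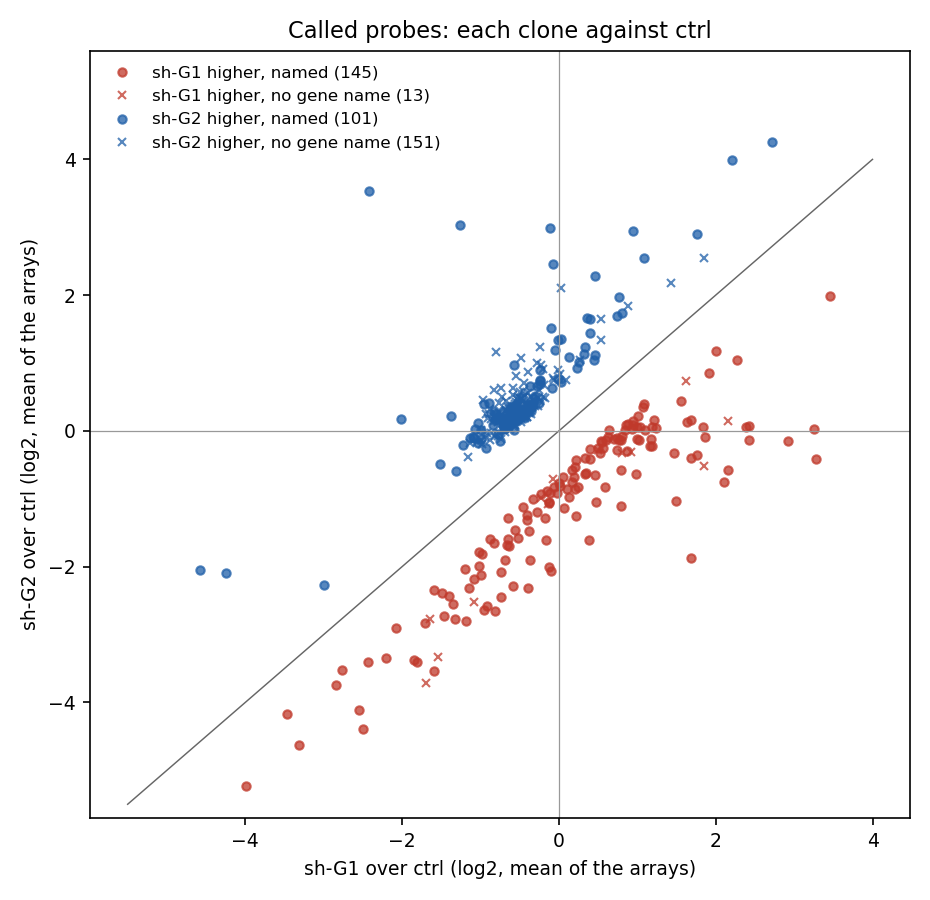
Mean log2 ratio to ctrl in sh-G1 (x axis) and in sh-G2 (y axis) for the 410 called probes, red where sh-G1 and blue where sh-G2 was higher, circles for probes with a gene name and crosses for those without, and the line of equal values. The blue points have a median of -0.53 along the x axis and 0.30 along the y axis, the red points 0.21 and -0.83.

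The probes of this class were mostly ones without a gene name, that is, probes whose accession on the array is no transcript of the RefSeq table. Of all probes 63.1% were named, of those higher in sh-G1 91.8%, and of those higher in sh-G2 40.1%. Among unnamed probes 13 were called higher in sh-G1 (0.0900%) and 151 higher in sh-G2 (1.05%). Among named probes the order was the reverse, with 145 (0.587%) and 101 (0.409%). At 2-fold the unnamed counts were 7 and 22. The 151 unnamed probes lay at a median log2 ratio to ctrl of -0.53 for sh-G1 and 0.30 for sh-G2. Most of them departed from ctrl in neither clone. Their median difference was -0.86 with the knockdown clones in Cy5 and -0.78 in Cy3. In the ctrl channel alone their medians were -0.07 and -0.07, and none of the 151 was called there. Of the 151, 2 passed limma. What these transcripts share was not tested.

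MALAT1, KCNQ1OT1 and SCARNA17, non-coding RNAs called higher in sh-G2, were chosen with their values known. MALAT1, an abundant nuclear long non-coding RNA, read -1.57 and -1.47 on the sh-G1 arrays and -0.82 and -0.15 on those of sh-G2 in its brightest probe. A second of its 4 probes was called too, and the others differed by -0.44 and -0.43. KCNQ1OT1, the non-coding RNA of an imprinted domain, read -1.21 and -0.94 on the sh-G1 arrays and 0.00 and 0.07 on those of sh-G2. SCARNA17, a small RNA of Cajal bodies, read -0.82 and -1.16 on the sh-G1 arrays and 0.00 and -0.23 on those of sh-G2. Of the 77 genes higher in sh-G2, 5 were not protein-coding (6.49%), and of the 111 higher in sh-G1 there was 1 such gene (0.901%), against 2.16% of all genes. None of MALAT1, KCNQ1OT1 and SCARNA17 passed limma, with adjusted p of 0.185, 0.124 and 0.109.

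Some called genes lay beside each other in the genome. With genes in the order of the RefSeq table, 24 pairs of called genes had at most 2 measured genes between them, and both genes of a pair were called in the same direction in 22. All 13 pairs with no measured gene between them had the same direction, among them HOXA11 with HOXA11-AS, whose transcripts overlap. The order held 16841 measured genes, and the number of such pairs among genes picked at random was not computed. The pairs of the same direction held 39 of the 188 called genes. Higher in sh-G1 were SLITRK3 with BCHE and the run AADAC, SUCNR1 and P2RY1 on chromosome 3, SLAIN2, SLC10A4 and ZAR1 on chromosome 4 (0.90, 1.15 and 1.95), the HOXA genes on chromosome 7, SYT4 with SETBP1 on chromosome 18, BMP2 with TMX4 on chromosome 20 (1.60 and 1.59) and CHODL with TMPRSS15 on chromosome 21 (1.42 and 1.37). Higher in sh-G2 were PDGFC with GLRB on chromosome 4, LUM with DCN on chromosome 12 and PWWP3B with RNF128 on chromosome X (-1.78 and -2.00). The pairs in opposite directions were PCDH10 with PCDH18 and GPM6A with ASB5.

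Longer stretches of the chromosomes differed little. The median difference by chromosome ran from -0.02 (chromosome 13) to 0.04 (chromosome 22), and over 16174 windows of 30 neighbouring genes from -0.18 to 0.18. The share of called genes was highest on chromosome 18, at 3.29% with 7 genes toward sh-G1 and 1 toward sh-G2. On chromosome 4 it was 3.21%, with 12 and 9. Of the 188 called genes, 82 had further probes on the array. For 27 of them a further probe was called in the same direction, for 70 every further probe had the same sign, and for none was a further probe called in the opposite direction. Some list members given above by their brightest probe alone had further probes that were not called. Examples were TGFB2 (0.30), FGFR3 (0.23), MGAT3 (0.09), SOX2 (0.17), TBX1 (0.22), COL6A2 (0.29), TRIB3 (0.16), PDGFC (-0.51) and SCN9A (-0.48).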

How the data were processed

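Total RNA of the 3 clones was measured on 4 two-colour Agilent 44K arrays of 1 slide. The authors scanned and quantified them with Agilent Feature Extraction, whose version is 10.5.1.1 in the file headers and 8.5.1.1 in the submitters' processing notes. The deposited files hold, per spot and channel, median pixel intensities of the spot and its local background, not corrected, and processed intensities. The deposited files also hold log10 ratios of Cy5 over Cy3, which the authors' scanner software computed from its dye-normalised intensities and which served here only as an alternative. In the deposited series table the column of sh-G1 replicate 2 holds the error of that ratio, so its values served for the Cy5 orientation only.

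Median intensities were background-corrected by normexp (offset 50) and normalised by loess within each array in limma 3.58.1 (R 4.3.3), with control and outlier spots at weight 0. Ratios were turned to knockdown over ctrl on the log2 scale, and spots of a probe were averaged. Probes in which some array had neither channel well above background were left out, and 39152 of 40905 probes with values on all arrays were kept. Loess assumes that most probes do not change, so a shift common to most genes would be removed. For the ctrl and knockdown channels alone, Aquantile scaling between arrays followed. limma fitted each clone and a dye effect on 4 arrays, with 1 residual degree of freedom, a trended prior and Benjamini-Hochberg adjustment over all probes. The dye term is the replicate number, which the labels tie to the dye orientation. Deviations of same-numbered arrays from their group means correlated with 0.69. With so few arrays precision is limited by their number.

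Accessions on the array were matched to the RefSeq table of GRCh38.p14, which named 25398 of 41000 probes, and a gene is given by its brightest kept probe. Named were GALNT3, up to 15 genes per direction past 2-fold and limma's threshold, up to 4 called members of each gene list, and probes that left ctrl in opposite directions. Some genes that met this rule are not reported here. The comparison, its members and the gene lists were chosen with earlier results of these data known. The scripts were tested on simulated data. Figures were drawn in Python 3.11.15 with matplotlib 3.10.9. The alternatives covered the background correction, normalisation, filter on dim probes, dye term, prior, fold rule and each array left out.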

Additional observations from a re-analysis of the deposited data

How the results depend on the processing

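The direction of all 28 named genes past limma's threshold was kept under every alternative that gave them a value. These were 14, and 13 for BMP2 and FMN2, whose probes were too dim for the strictest filter. A kept direction was largely fixed in advance, since these genes also passed 2-fold in both dye orientations. Dropping the dye term, the trended prior or the filter on dim probes leaves the difference itself unchanged. Of the 28 genes, 3 (PTN, WNT5A and FMN2) passed limma when the dye term, and with it the pairing by replicate number (the replicate block), was dropped. Of the 410 called probes, 409 were called again with offset 0, 406 without background correction, 386 with median centring, 387 with the scanner's ratios and 362 in the knockdown channel alone. With 1 array left out or no filter on dim probes all are called again by construction. The counts themselves moved. Probes higher in sh-G2 by fold numbered 382 with offset 0. The scanner's own ratios gave 278 and 513 by fold (sh-G1 higher, then sh-G2 higher) and 50 and 37 by limma. The knockdown channel alone, with both channels quantile scaled between arrays in place of the Aquantile scaling of the report, gave 250 and 390 by fold and 53 and 49 by limma. limma called 23 probes higher in sh-G2 with no filter on dim probes, 19 higher in sh-G1 where all channels had to be well above background, 9 higher in sh-G2 without a trended prior, and 2 and 3 without the dye term. A threshold of 2-fold gave 70 and 49 probes, and 4 in the ctrl channel, and a mean difference of 1.5-fold gave 282 and 459. The values of the series table, in the Cy5 orientation alone, gave 1943 and 1714. Leaving out 1 array leaves 1 dye orientation for the fold rule, which then called 303 to 1417 probes higher in sh-G1 and 511 to 1180 higher in sh-G2. limma then called 12 to 303 and 11 to 177, with the lone array assumed to vary like the others. Of the calls by fold 38.5% were higher in sh-G1, against 54.6% in the Cy5 orientation alone and 53.1% in the series table. The difference of GALNT3 changed sign, to -0.12 with the scanner's ratios, -0.030 with the knockdown channel alone, and ranged from -0.13 to 0.14 with 1 array left out. The cause of these changes was not tested, beyond the smaller number of arrays where 1 was left out. Each clone is a single clone, and a dim signal limits GALNT3.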
